A study of Mus musculus with 11 samples.

Results

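The acute phase genes described here are the 10 rows of the count table that carry the symbols *Saa1*, *Saa2*, *Saa3*, *Saa4*, *Orm1*, *Orm2*, *Orm3*, *Lcn2*, *Hp* and *Apcs*, out of 46603 genes in the table. They were chosen by name: the serum amyloid A proteins, the orosomucoids, lipocalin 2, haptoglobin and serum amyloid P. Liver RNA came from 11 male mice of the strain B6.V-Lep ob/JRj, which carry the *ob* mutation on both alleles, lack leptin and were 5 to 6 weeks old when they were placed on the AMLN diet, a diet rich in fat, fructose and cholesterol that produces metabolic dysfunction-associated steatohepatitis (MASH). The diet was given for 15 weeks before treatment and throughout it, and mice entered the study on the steatosis and fibrosis seen in a baseline liver biopsy. INT-767, a bile acid derivative that activates the receptors FXR and TGR5, was given to 4 mice by oral gavage at 10 mg/kg once daily for 8 weeks, and 7 mice received the vehicle, carboxymethyl cellulose. The mutation, the diet and the biopsy were common to both groups, and no lean or healthy mice were analysed here. The question was which of these transcripts differed in the liver after INT-767.

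During infection or tissue injury, cytokines such as interleukin-6 and interleukin-1 act on hepatocytes, which through STAT3, NF-kB and C/EBP factors raise the transcription of a set of plasma proteins and lower that of others such as albumin. In mice the serum amyloid A proteins and serum amyloid P are the main reactants, while the orosomucoids, haptoglobin and lipocalin 2 bind small lipophilic molecules, free hemoglobin and bacterial iron carriers. Most of these proteins are made by hepatocytes, but *Saa3* is known chiefly from macrophages and fat cells, and lipocalin 2 is also stored in neutrophil granules.

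The libraries held between 7966963 and 15295230 counts with vehicle (median 10878327, n = 7) and between 7381211 and 16022459 with INT-767 (median 12034846.5, n = 4). Levels are given as CPM, the counts of a gene relative to the library size after TMM scaling, an edgeR step that corrects for differences in library composition. The 10 genes together took between 0.701% and 1.48% of all counts with vehicle (median 0.845%) and between 0.471% and 0.815% with INT-767 (median 0.547%). Most of this share was *Hp*. Without *Hp* the summed level was 1069 to 4733 CPM with vehicle and 1510, 1343, 597 and 1781 CPM with INT-767, so that the groups overlapped. All 10 passed the filter on low counts, with the fewest counts for *Saa3*, between 30 and 183 in a mouse, and the most for *Hp*, between 30504 and 115454. As a check of the labels, the FXR target *Nr0b2* was at 17.0 ± 5.91 CPM (n = 7, SD) with vehicle and 49.6 ± 9.49 (n = 4, SD) with INT-767, and *Cyp8b1*, a bile acid synthesis gene repressed by FXR, at 122 ± 31.2 (n = 7, SD) and 4.95 ± 5.69 (n = 4, SD).

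Certain libraries stood apart from their group. INT-767 mouse 4 held the fat cell transcripts *Lep* at 4.79 CPM, *Adipoq* at 3.37 CPM and *Plin1* at 1.35 CPM, where *Lep* had 0 counts in all other mice and neither *Adipoq* nor *Plin1* exceeded 0.138 CPM in any of them. A count of 0 allowed up to 0.187 to 0.406 CPM when scaled by library size only, without the TMM step. This limit depends on the depth of the mouse and covers counting error only. These 3 genes belong to the fat cell list, and were named after their values were seen. Vehicle mouse 3 had the highest level of its group for 8 of the 10 acute phase genes, and vehicle mouse 6 the lowest for 7. For each acute phase gene the log2 fold change is given below with and without INT-767 mouse 4 and vehicle mouse 3.

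Of the 10 genes, 2 were lower and 0 higher in INT-767-treated mice by edgeR's quasi-likelihood test at a Benjamini-Hochberg adjusted *p* under 0.05. Over all 13880 genes tested, 4.68% were called lower and 5.04% higher. The called genes were *Orm2* and *Lcn2*, whose mean levels with INT-767 were 0.251 and 0.241 of those with vehicle. The other 8 did not pass the test, with log2 fold changes from -1.30 for *Saa2* to 0.30 for *Orm3*. The sign was negative for 8 of the 10 genes, and their median log2 fold change was -0.48, beside -0.01 over all tested genes. The median was smaller, -0.24, without vehicle mouse 3 and -0.26 when INT-767 mouse 3 was left out, and was -0.61 without INT-767 mouse 4. In *Orm2* and *Lcn2* every INT-767-treated mouse lay below every vehicle mouse, a separation in this direction shown by 3.65% of the tested genes. By an exact Mann-Whitney test before adjustment, *Orm2* and *Lcn2* were the 2 of the 10 genes under 0.05, beside 23.5% of all tested genes (24.5% when scaled by library size only), so that this share was near the background. None of the 10 genes had every treated mouse above every vehicle mouse, as 3.87% of the tested genes did. In whole liver RNA, fewer cells of a type and less RNA per cell cannot be told apart.

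**Figure D1:**
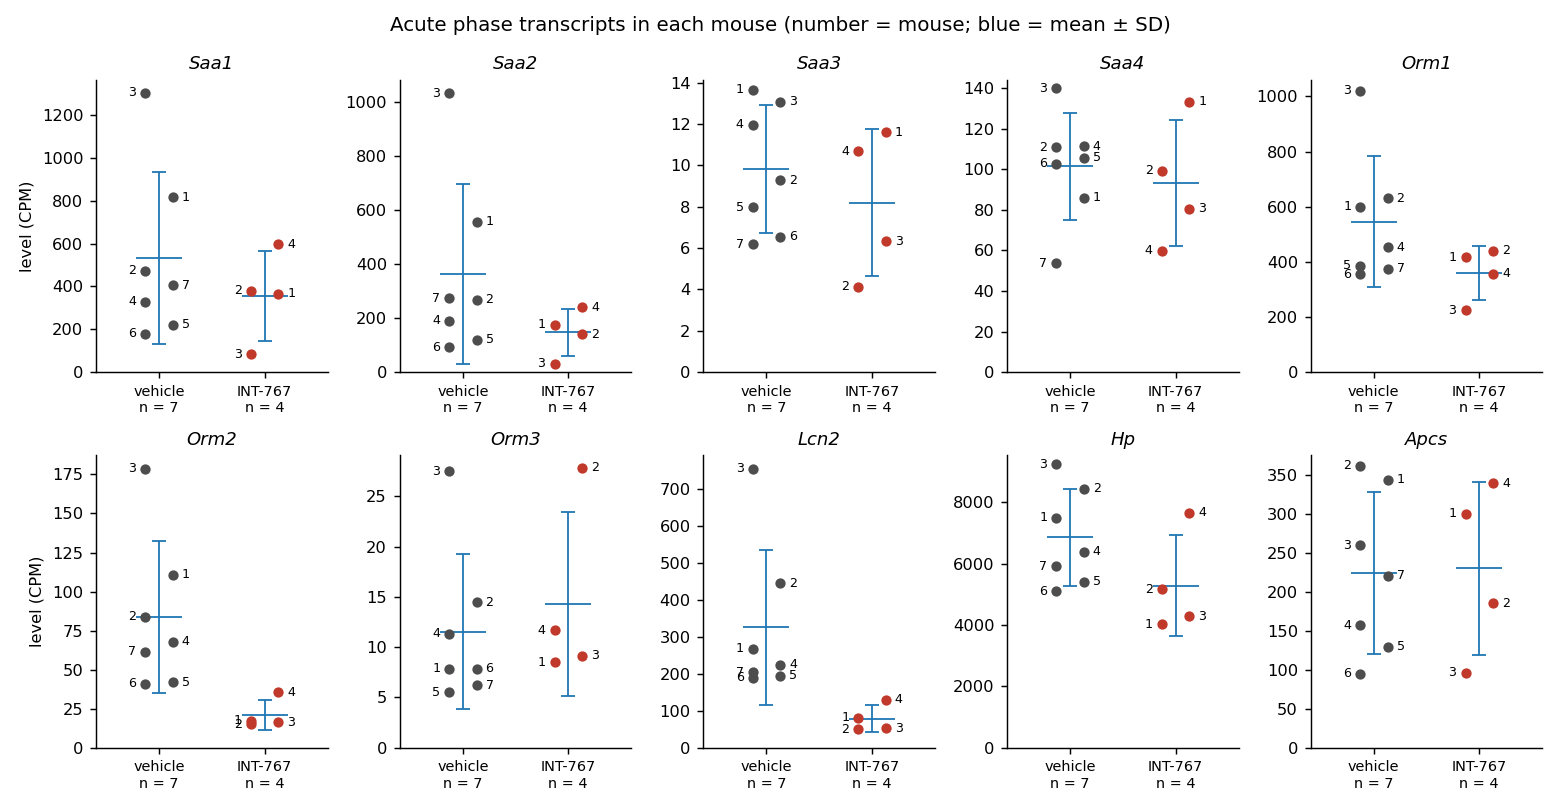
Level of each acute phase gene in CPM (vertical axes, linear from 0) in each vehicle and INT-767-treated mouse. Each point is 1 mouse with its number, and blue lines give the mean and SD. The groups are apart for *Orm2* and *Lcn2*, and vehicle mouse 3 is the highest vehicle mouse in 8 of the 10 panels.

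The serum amyloid A genes lie together on chromosome 7 of GRCm38. *Saa1* spans 46740497 to 46742980 on the minus strand and *Saa2* 46751790 to 46754313 on the plus strand, each with 4 exons. Both encode the inducible forms that are carried on high density lipoprotein. The 250 bases before their RefSeq starts were 94.8% identical over 251 aligned positions. They are shown, from 250 to 44 bases before the start and 5′ to 3′ on the strand of the gene, because these neighbours moved together among the vehicle mice while their ratio differed between the groups. The stretches are chr7:46743024-46743230 (minus strand) for *Saa1* and chr7:46751583-46751789 (plus strand) for *Saa2*, from the RefSeq promoter table of GRCm38.p6. Capitals mark a match to TTGCNNAA, a form of the C/EBP binding motif, searched on both strands.
Saa1: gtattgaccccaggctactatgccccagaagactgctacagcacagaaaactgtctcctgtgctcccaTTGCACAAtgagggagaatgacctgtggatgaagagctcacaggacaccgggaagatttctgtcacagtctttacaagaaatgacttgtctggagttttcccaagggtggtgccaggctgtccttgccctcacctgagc
Saa2: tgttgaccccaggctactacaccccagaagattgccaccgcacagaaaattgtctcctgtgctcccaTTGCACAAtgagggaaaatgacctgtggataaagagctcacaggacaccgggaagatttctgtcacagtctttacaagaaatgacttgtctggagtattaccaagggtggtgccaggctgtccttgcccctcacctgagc

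*Saa1* ranged from 179 to 1306 CPM over the vehicle mice (median 407). The INT-767-treated mice had 367, 380, 83.1 and 597 CPM. Their values lay within the vehicle range except for mouse 3, which was below it, so that the groups overlapped widely. The log2 fold change was -0.58 (SE 0.58, edgeR, adjusted *p* = 0.481), a difference smaller than the spread between mice. *Saa2* ranged from 92.6 to 1032 CPM with vehicle (median 268), and stood at 175, 140, 30.2 and 240 CPM in the INT-767-treated mice. All 4 treated mice were below the vehicle median, yet only mouse 3 was below the lowest vehicle mouse. Its log2 fold change of -1.30 had an SE of 0.68 and an adjusted *p* of 0.194 from edgeR, and the 95% interval, from -2.78 to 0.18, spans both a deep fall and a small rise. *Saa2* also varied more among vehicle mice than any other of the 10 genes, with an 11.1-fold range and a coefficient of variation of 92.0%. Without vehicle mouse 3 the log2 fold changes were -0.18 for *Saa1* and -0.77 for *Saa2*, and without INT-767 mouse 4 they were -0.96 and -1.66, none of them called.

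The ratio of *Saa2* to *Saa1* counts needs no scaling between libraries. It was between 0.518 and 0.790 in the vehicle mice (median 0.579), and 0.478, 0.369, 0.364 and 0.402 in the INT-767-treated mice. No treated mouse reached the lowest vehicle mouse. The mean log2 ratio was lower by 0.617 on the log2 scale with INT-767 (exact two-sided permutation test over 330 assignments of the mice, *p* = 0.00303, the smallest this design allows, and 0.00455 after adjustment over the 3 ratios compared). The ratio was chosen after the values of both genes had been seen. Of the 75-base windows in *Saa1* transcripts, 18.5% also occur in *Saa2*, and 17.8% in the opposite direction, so that how the authors' counting assigned shared reads may enter both genes. With both genes summed into 1 row, the log2 fold change was -0.83 (SE 0.61, edgeR, adjusted *p* = 0.343).

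*Saa4*, on chromosome 7 from 46727998 to 46732603 (minus strand), encodes the constitutive serum amyloid A that is present without inflammation. It had 53.6 to 140 CPM with vehicle (median 106) and 133, 99.5, 80.5 and 59.8 CPM with INT-767. The groups covered the same range, and the log2 fold change was -0.12 (SE 0.25, edgeR, adjusted *p* = 0.750), 0.04 without INT-767 mouse 4 and -0.03 without vehicle mouse 3. *Saa3*, from 46711998 to 46715700 on the minus strand, was at 6.18 to 13.7 CPM with vehicle (median 9.29) and at 11.6, 4.14, 6.32 and 10.7 CPM with INT-767. It too overlapped between the groups, with a log2 fold change of -0.23 (SE 0.31, edgeR, adjusted *p* = 0.605). The 95% intervals reached from -0.90 to 0.44 for *Saa3* and from -0.67 to 0.43 for *Saa4*, so that a change of more than 1 on the log2 scale lay outside both.

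The macrophage markers moved beside *Saa3* as follows. Of 15 listed and tested, 3 were lower with INT-767 by edgeR, *Csf1r* (log2 fold change -1.14), *Itgam* (-1.73) and *Cd68* (-1.16), and 0 higher. The list had a median of -0.63 and a negative sign in 14 of 15 genes, further below 0 than the median of the acute phase genes. Their summed level was 822 to 1165 CPM with vehicle (median 1016) and 601, 579, 536 and 1254 CPM with INT-767. By this sum 3 treated mice were below all vehicle mice and mouse 4 above them. The sum in mouse 4 was mostly *Cd5l* at 404 CPM and *Lyz2* at 398 CPM. Its *Csf1r* at 53.6 CPM, *Cd68* at 15.3 CPM and *Itgam* at 5.01 CPM were below every vehicle mouse. The most abundant marker, *Lyz2*, was not called (-0.40, edgeR, adjusted *p* = 0.417), nor were *Cd5l* (-0.03) and *Gpnmb* (-1.33, edgeR, adjusted *p* = 0.0745), and no marker was at 0 in all mice. Without INT-767 mouse 4, which also held the fat cell transcripts, the log2 fold change of *Saa3* was -0.38, and without vehicle mouse 3 it was -0.15. The part of these cells in the level of *Saa3* was not tested.

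The orosomucoid genes stand in a row on the plus strand of chromosome 4, *Orm1* from 63344560 to 63348163, *Orm3* from 63356162 to 63359511 and *Orm2* from 63362449 to 63365878, each with 6 exons. They encode alpha-1-acid glycoproteins, which bind drugs and other small lipophilic molecules in plasma. The RefSeq windows of 250 bases before the starts of *Orm2* and *Orm3* were 85.9% identical over 255 aligned positions. They are printed, chr4:63362199-63362448 for *Orm2* and chr4:63355908-63356157 for *Orm3*, both on the plus strand of GRCm38.p6, because *Orm2* was lower in the INT-767-treated mice and *Orm3* was not. Each held 1 match to TTGCNNAA (capitals), which begins 120 bases before the start in *Orm2* and 121 in *Orm3*.
Orm2: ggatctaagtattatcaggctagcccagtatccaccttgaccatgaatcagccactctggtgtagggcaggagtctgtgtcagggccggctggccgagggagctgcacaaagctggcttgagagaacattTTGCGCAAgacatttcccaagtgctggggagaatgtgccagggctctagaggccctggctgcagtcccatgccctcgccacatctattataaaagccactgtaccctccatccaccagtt
Orm3: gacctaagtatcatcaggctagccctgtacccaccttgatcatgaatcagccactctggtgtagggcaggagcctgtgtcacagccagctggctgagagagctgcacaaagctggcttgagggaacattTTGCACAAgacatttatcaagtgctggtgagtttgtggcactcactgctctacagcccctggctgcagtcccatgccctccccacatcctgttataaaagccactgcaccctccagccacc

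*Orm2* ranged from 41.1 to 179 CPM over the vehicle mice (median 68.0). The INT-767-treated mice had 17.1, 15.2, 16.2 and 35.6 CPM, all below the lowest vehicle mouse. The log2 fold change was -1.99 (SE 0.43, edgeR, adjusted *p* = 0.0180), and the two-sided exact Mann-Whitney test gave *p* = 0.00606, the smallest that 4 against 7 mice allow, with 0.0807 after adjustment over all tested genes. No gene of the 13880 fell under an adjusted *p* of 0.05 by that rank test, whose smallest adjusted value was 0.0807. The call of *Orm2* by edgeR was lost without INT-767 mouse 2 (log2 fold change -1.88, edgeR, adjusted *p* = 0.0806, where the adjusted *p* over all leave-outs ranged from 0.0140 to 0.0806). It held with each other mouse left out, at -1.68 without vehicle mouse 3 and -2.38 without INT-767 mouse 4.

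*Orm1*, the most abundant of the orosomucoid genes, ranged from 355 to 1021 CPM with vehicle (median 453) and had 417, 440, 223 and 356 CPM in the INT-767-treated mice. All 4 treated mice were below the vehicle median, and mouse 3 was below the lowest vehicle mouse. The log2 fold change of -0.60 (SE 0.31) was not called (edgeR, adjusted *p* = 0.183; two-sided exact Mann-Whitney test, *p* = 0.230), and it was -0.38 without vehicle mouse 3 and -0.61 without INT-767 mouse 4. *Orm3* lay between 5.52 and 27.5 CPM with vehicle (median 7.85) and at 8.50, 27.9, 9.13 and 11.7 CPM with INT-767. No treated mouse was below the vehicle median. Its log2 fold change of 0.30 (SE 0.46, edgeR, adjusted *p* = 0.648) moved with single mice, to -0.25 without INT-767 mouse 2, to 0.68 without vehicle mouse 3, which was as high, and to 0.37 without INT-767 mouse 4.

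The ratio of *Orm2* to *Orm1* counts was between 0.109 and 0.185 with vehicle (median 0.150) and was 0.0411, 0.0345, 0.0724 and 0.0999 in the INT-767-treated mice. The groups did not overlap, and the mean log2 ratio was lower by 1.36 on the log2 scale (exact two-sided permutation test, *p* = 0.00303, the smallest possible, and 0.00455 after adjustment over 3 ratios). *Orm3* relative to *Orm1* went the other way, from 0.0131 to 0.0269 with vehicle to 0.0204, 0.0633, 0.0409 and 0.0327 with INT-767, with some overlap (difference of mean log2 ratio 0.90, exact two-sided permutation test, *p* = 0.0273). These ratios, too, were chosen after the values were seen. *Orm1* and *Orm2* transcripts have the same length, 775 bases, and a GC content of 49.0% and 49.2%. They share 13.8% of their 75-base windows with each other, and *Orm3* shares 0.143% of its own with *Orm2*. Summed into 1 row, the 3 genes had a log2 fold change of -0.70 (SE 0.32, edgeR, adjusted *p* = 0.145), close to that of the abundant *Orm1*.

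**Figure D2:**
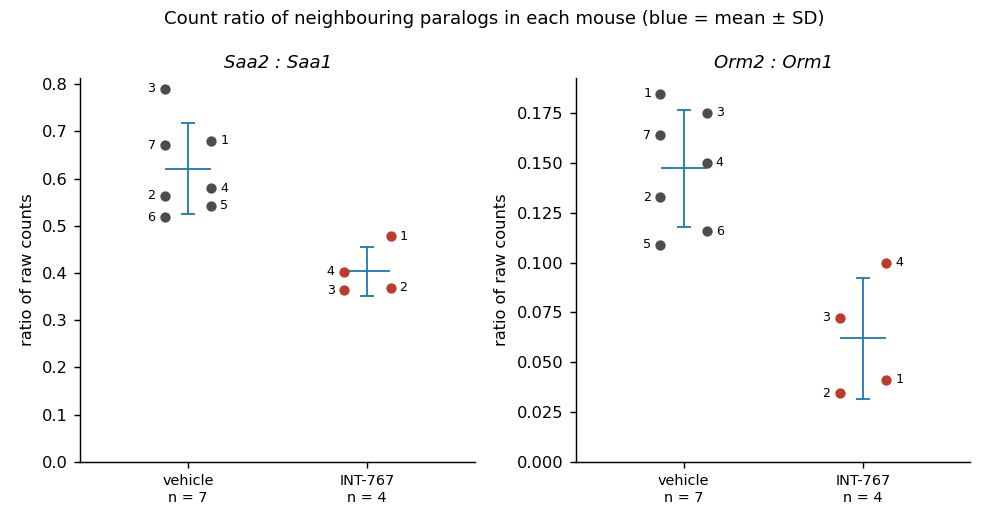
Ratio of raw counts of *Saa2* to *Saa1* (left) and of *Orm2* to *Orm1* (right), on linear axes from 0, in each vehicle and INT-767-treated mouse. Points are numbered mice and blue lines the mean and SD. In both panels all 4 INT-767-treated mice lie below the lowest vehicle mouse.

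*Lcn2*, on chromosome 2 from 32384633 to 32388252 (minus strand), encodes lipocalin 2, which withholds iron from bacteria by binding their siderophores. It ranged from 190 to 756 CPM in the vehicle mice (median 225). The INT-767-treated mice had 80.8, 50.6, 52.7 and 130 CPM. Every treated mouse was below every vehicle mouse, with a gap between 130 and 190 CPM. The log2 fold change was -2.05 (SE 0.45, edgeR, adjusted *p* = 0.0191; two-sided exact Mann-Whitney test, *p* = 0.00606, and 0.0807 adjusted over all tested genes). Without INT-767 mouse 2 the call was lost (-1.92, edgeR, adjusted *p* = 0.0842, the highest of a range that began at 0.0166), and it held without each other mouse, at -1.70 without vehicle mouse 3 and -2.42 without INT-767 mouse 4.

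Neutrophil markers were scarce in these livers. Of 15 listed, 5 were tested. Lower with INT-767 were *Prtn3*, a granule protease (log2 fold change -3.20, edgeR, adjusted *p* = 0.00450), and *Csf3r*, the receptor for granulocyte colony-stimulating factor (-1.49, edgeR, adjusted *p* = 0.0174). *Prtn3* had only 127 counts over the 7 vehicle mice and 7 over the 4 INT-767-treated mice. *S100a9*, the most abundant, *S100a8* and *Mmp8* were not called (0.46, 0.31 and 0.12), and no marker of the list was at 0 in all mice. The summed level of the 15 was 15.6 to 21.8 CPM with vehicle (median 20.6) and 10.2, 9.79, 4.92 and 32.1 CPM with INT-767. The sum in INT-767 mouse 4 was mostly *S100a9* at 15.7 CPM and *S100a8* at 9.95 CPM, while its *Prtn3* at 0.150 CPM and *Csf3r* at 2.39 CPM were below every vehicle mouse. Both called neutrophil genes were lower with INT-767, as *Lcn2* was, while the 5 tested had a median log2 fold change of 0.12. The sign was negative in 2 of these 5. The listed markers with too few counts to be tested all had a lower mean CPM with INT-767. Among them, named after their values were seen, *Ngp* was at 0.940 ± 0.513 CPM (n = 7, SD) with vehicle and 0.422 ± 0.337 (n = 4, SD) with INT-767. *Ltf* was at 0.488 ± 0.241 (n = 7, SD) and 0.0793 ± 0.159 (n = 4, SD). The part of neutrophils in the difference in *Lcn2* was not tested.

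Haptoglobin, which binds free hemoglobin, was by far the most abundant of these transcripts. *Hp*, on chromosome 8 from 109575128 to 109579172 (minus strand), ranged from 5109 to 9251 CPM with vehicle (median 6392) and had 4027, 5164, 4287 and 7659 CPM with INT-767. Of the treated mice, 1 and 3 were below all vehicle mice, and mouse 4 was among the higher values. The log2 fold change of -0.38 (SE 0.23) was not called (edgeR, adjusted *p* = 0.262; two-sided exact Mann-Whitney test, *p* = 0.164). It was -0.62 without INT-767 mouse 4 (edgeR, adjusted *p* = 0.113, in a range of 0.113 to 0.435 over all leave-outs; two-sided exact Mann-Whitney test, *p* = 0.0333 before adjustment, in a range of 0.0333 to 0.383), and without vehicle mouse 3 it was -0.29.

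*Apcs*, on chromosome 1 from 172893961 to 172895041 (minus strand), encodes serum amyloid P, a pentraxin that binds microbial surfaces and amyloid. It lay between 94.6 and 361 CPM with vehicle (median 220) and at 300, 185, 96.0 and 339 CPM with INT-767. The treated mice were spread over nearly the whole vehicle range. The log2 fold change was 0.04 (SE 0.40, edgeR, adjusted *p* = 0.947; two-sided exact Mann-Whitney test, *p* = 1.0), and its sign turned under scaling by library size only (-0.15) and by upper-quartile factors (-0.05), and without INT-767 mouse 4 (-0.21), while it was 0.08 without vehicle mouse 3.

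**Figure D3:**
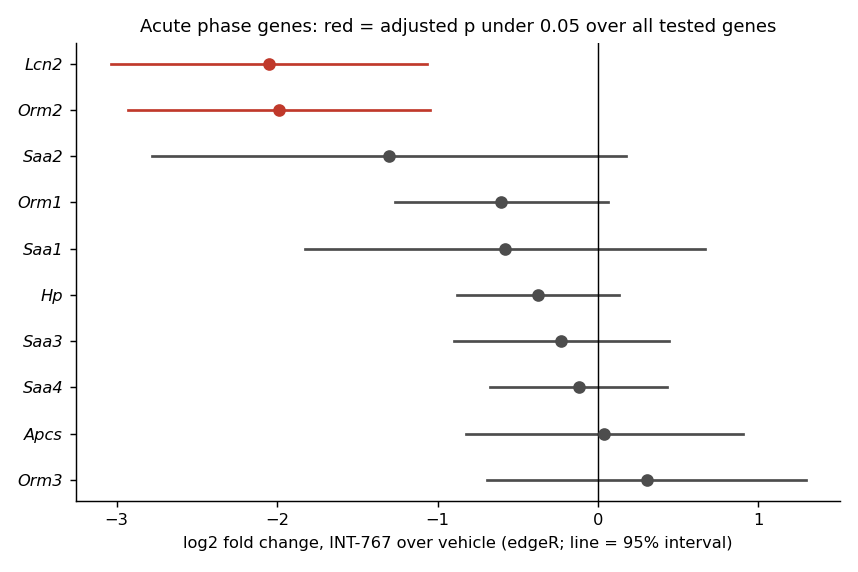
Log2 fold change of INT-767 over vehicle (horizontal axis) for each acute phase gene, with its 95% interval from edgeR over 7 vehicle and 4 INT-767-treated mice. The intervals of *Lcn2* and *Orm2*, in red, lie below -1, and the intervals of the other 8 genes include 0.

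Levels of different genes were compared per length, as CPM per kilobase of the principal transcript. In vehicle mice *Hp* was first at 5102 ± 1173 CPM per kilobase (n = 7, SD), followed by *Saa1* at 875 ± 658, *Orm1* at 704 ± 305 and *Saa2* at 596 ± 549. *Saa1*, *Orm1* and *Saa2* differed by less than their spread between mice. Next came *Lcn2* at 356 ± 229, *Apcs* at 230 ± 107 and *Orm2* at 108 ± 62.5. *Saa4* at 48.5 ± 12.7, *Saa3* at 17.7 ± 5.58 and *Orm3* at 14.9 ± 9.95 were the lowest. With INT-767, *Lcn2* had 85.8 ± 40.3 CPM per kilobase (n = 4, SD) and *Orm2* 27.1 ± 12.6, the latter then below *Saa4* at 44.6 ± 14.9. The order depends on the transcript taken: with all exons of a gene joined, *Orm1* and *Apcs* took ranks 2 and 3 in vehicle mice and *Saa1* and *Saa2* ranks 4 and 5.

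The vehicle mice differed among themselves in a way that many of these genes shared. Vehicle mouse 3 was above the vehicle mean of log2 CPM for all 10 genes and vehicle mouse 2 for 9, while mice 5 and 6 were above it for 1 gene each. Of the INT-767-treated mice, mouse 3 was above the vehicle mean for 0 genes and mouse 4 for 5. Vehicle mouse 3 was also the highest vehicle mouse for *Zfp36*, *Pim3* and *Junb*, at 173, 218 and 186 CPM. These genes are induced by cytokines and growth factors and belong to the feedback and target genes of STAT3 and NF-kB described below. In the same list vehicle mouse 3 was the lowest vehicle mouse for *Irf1*, *Ccl2*, *Socs2*, *Cish* and *Pias3*, named after their values were seen.

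**Figure D4:**
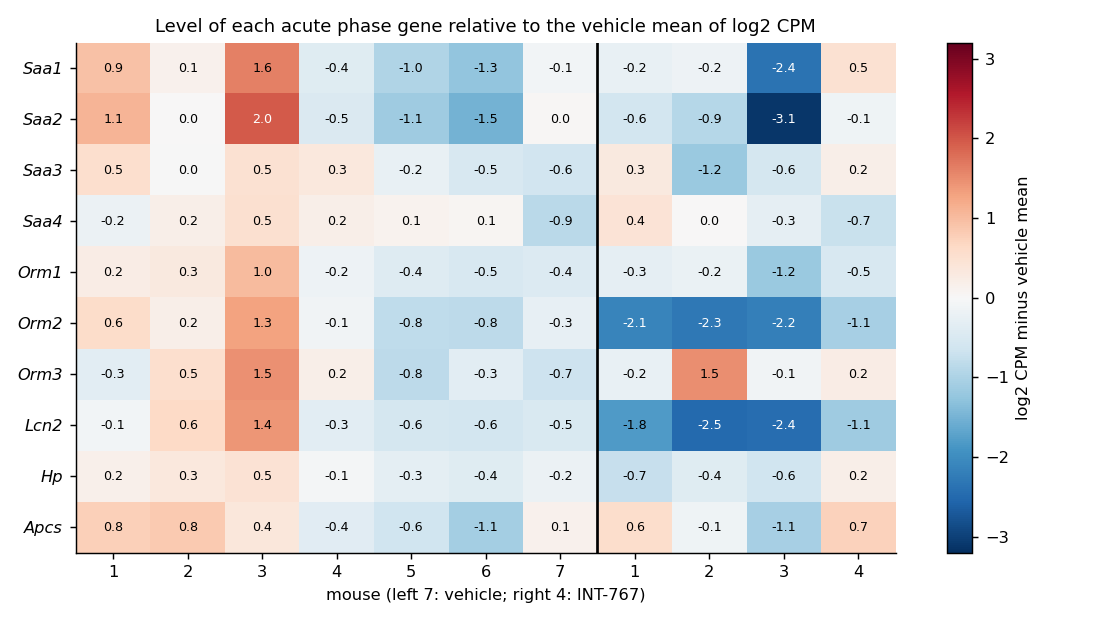
Log2 CPM of each acute phase gene (rows) in each mouse (columns; left 7 vehicle, right 4 INT-767) minus the mean of the vehicle mice, printed in each cell and shown in color. Vehicle mouse 3 is above 0 in all 10 rows, and all 4 INT-767-treated mice are below -1 for *Orm2* and *Lcn2*.

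Over the 7 vehicle mice, 6 pairs of genes were compared by correlation of log2 CPM, with exact two-sided permutation tests adjusted over the 6 pairs. *Saa1* and *Saa2* rose and fell together (Pearson's r = 0.997, permutation *p* = 0.000397, adjusted 0.00119; Spearman's rho = 0.96, permutation *p* = 0.00278, adjusted 0.00833). So did *Hp* and *Orm1*, which lie on different chromosomes (r = 0.95, permutation *p* = 0.000397, adjusted 0.00119; rho = 0.96, permutation *p* = 0.00278, adjusted 0.00833). For *Orm1* with *Orm2* r was 0.95 (permutation *p* = 0.00179, adjusted 0.00268) and rho 0.93 (permutation *p* = 0.00675, adjusted 0.0101). For *Saa2* with *Orm2* r was 0.97 (permutation *p* = 0.00139, adjusted 0.00268) and rho 0.89 (permutation *p* = 0.0123, adjusted 0.0148). These 4 pairs kept r between 0.92 and 0.99 without the 2 mice farthest from the median.

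*Saa1* with *Lcn2* had r = 0.81 (permutation *p* = 0.0228, adjusted 0.0274) and rho = 0.93 (permutation *p* = 0.00675, adjusted 0.0101), but r fell to 0.48 without vehicle mice 3 and 6, the mice farthest from the median. Leaving out single mice, the adjusted permutation *p* of r rose above 0.05 in 4 of 7 cases. These were without mouse 3 (r = 0.58, adjusted permutation *p* = 0.285), 4, 5 or 6. By Pearson's r this relation thus did not hold up when single mice were left out. *Saa3* with *Lcn2* did not pass (r = 0.57, permutation *p* = 0.189 and adjusted 0.189; rho = 0.71, permutation *p* = 0.0881 and adjusted 0.0881; r = 0.67 without vehicle mice 1 and 7). All points of a pair come from the same libraries and the same scaling, and *Saa1* with *Saa2* and *Orm1* with *Orm2* share sequence as well. The INT-767 group is too small for a correlation.

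The windows of 250 bases before the RefSeq start were searched for 4 motifs on both strands, for the 8 genes that have one. Not all of these bases lie outside transcripts: 197 of the 250 in *Lcn2*, 43 in *Saa2* and 24 in *Saa3* are in an annotated exon. A match to TTGCNNAA (C/EBP) was present in 7 of the 8, all but *Apcs*, and in 9.56% of all 32851 windows of the table. GGG and CC with any 5 bases between them, a loose form of the NF-kB motif, matched in *Saa1*, *Saa2*, *Saa4* and *Lcn2*, and in 45.8% of all windows. TTCNNNGAA, the STAT motif, matched in *Apcs*, and in 7.02% of all windows. The inverted repeat of GGTCA and TGACC with 1 base between them, which FXR is known to bind, matched in 0 of the 8 and in 0.033% of all windows. No match of a motif overlapped one of another motif. A match describes the letters of a window and does not show that a factor binds there.

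Other genes of the acute phase response went in both directions. Of 38 further positive acute phase genes, 37 were tested, with 4 higher and 5 lower by edgeR and a median log2 fold change of -0.15. Among the called genes with the smallest *p*, *Fgl1*, a hepatocyte-secreted fibrinogen-like protein, went from 547 ± 245 CPM (n = 7, SD) to 179 ± 64.2 (n = 4, SD), and *Il1rn*, the antagonist of the interleukin-1 receptor, from 10.8 ± 2.90 to 5.11 ± 1.06. Higher with INT-767 were *Serpina3m* (log2 fold change 0.88) and *Serpina1d* (0.92), which encode protease inhibitors, and *Hamp2* (1.55), a hepcidin gene. The other called genes, named after their values were seen, were *Mbl2*, higher at 1.31, and *Mt1*, *Mt2* and *Vwf*, lower at -2.49, -3.40 and -1.31. The most abundant, *Hpx* (0.15), *C3* (0.22) and *Fgb* (0.17), were not called.

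Negative acute phase genes, which fall during an acute phase response, had a median log2 fold change of 0.32 over 16 genes, all tested, with 2 higher and 1 lower. *Serpinc1*, which encodes antithrombin, rose from 1535 ± 331 CPM (n = 7, SD) to 3023 ± 646 (n = 4, SD), a log2 fold change of 0.98 (edgeR, adjusted *p* = 0.0127). *Rbp4*, the plasma retinol carrier, rose by 0.69 on the log2 scale (edgeR, adjusted *p* = 0.0201). *Paqr9* fell by 1.20 on the log2 scale (edgeR, adjusted *p* = 0.00471). *Alb* (0.57, edgeR, adjusted *p* = 0.0891), *Apoa1* (0.52, edgeR, adjusted *p* = 0.0746) and *Gc* (0.33, edgeR, adjusted *p* = 0.165) were not called. Of 10 hepatocyte markers, all tested and 3 of them also among the negative acute phase genes (*Alb*, *Apoa1* and *Ttr*), 0 were called, and their median was 0.34. The summed hepatocyte markers, led by *Alb*, stood at 64945 to 86671 CPM with vehicle (median 71412) and at 108760, 120320, 100470 and 82879 CPM with INT-767, lowest in mouse 4, and none was at 0.

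Cytokine transcripts were low in these livers, and *Il6* and *Il22* were barely detected or not at all. Of 12 cytokine genes, most of them ligands of the interleukin-6 and interleukin-1 families, with *Tnf*, *Ifng* and *Il22* besides, 5 had enough counts to be tested. *Il6*, named after its counts were seen, had 3 counts over the 7 vehicle mice and 2 over the 4 INT-767-treated mice, and *Il22* had 0 in all mice, so that a difference was not detectable at this depth. *Lif*, a ligand of the interleukin-6 family, was lower at 0.329 ± 0.194 CPM (n = 4, SD) against 0.995 ± 0.315 (n = 7, SD). Its log2 fold change was -1.74 (edgeR, adjusted *p* = 0.0302). *Lif* had only 85 counts over the 7 vehicle mice and 12 over the 4 INT-767-treated mice. *Ctf1* (0.29), *Il1a* (0.19) and *Il1b* (0.18) were not called, and neither was *Tnf* (-1.15, edgeR, adjusted *p* = 0.0939), named after its values were seen.

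Of 12 cytokine receptor genes, 11 were tested, with 2 higher and 1 lower and a median of -0.22. *Il1rap*, the accessory chain of the interleukin-1 receptor, rose from 69.1 ± 16.4 CPM (n = 7, SD) to 181 ± 50.4 (n = 4, SD), a log2 fold change of 1.39 (edgeR, adjusted *p* = 0.00397). *Il22ra1*, a chain of the interleukin-22 receptor, rose by 1.42 on the log2 scale (edgeR, adjusted *p* = 0.00507), and *Osmr*, the oncostatin M receptor, fell by 0.79 (edgeR, adjusted *p* = 0.0167). In these 3 genes the groups did not overlap. *Il6st*, the shared signal chain of the interleukin-6 family, had 153 ± 55.0 CPM (n = 7, SD) and 92.4 ± 50.1 (n = 4, SD) and was not called (edgeR, adjusted *p* = 0.187), and neither were *Lifr* (-0.02) and *Tnfrsf1a* (-0.22).

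Of 26 listed signal transducers and transcription factors 25 were in the table and tested, and 1 was called, *Nr3c1*, the glucocorticoid receptor, higher by 0.60 on the log2 scale (edgeR, adjusted *p* = 0.0329). *Cebpa* (0.72, edgeR, adjusted *p* = 0.169), *Hnf4a* (0.16) and *Creb3l3* (0.56, edgeR, adjusted *p* = 0.0536) did not pass, and the median of the list was -0.03. Among 24 feedback and target genes of STAT3 and NF-kB, 22 were tested and 1 was called, *Icam1*, an adhesion molecule, lower at -0.80 (edgeR, adjusted *p* = 0.0130). The list had a median of -0.46 and a negative sign in 19 of 22 genes, and its most abundant genes *Zfp36* (-0.14), *Pim3* (-0.23) and *Junb* (-0.60) were not called. Its summed level was 445 to 1063 CPM with vehicle (median 513), the highest in vehicle mouse 3, and 419, 382, 486 and 480 CPM with INT-767.

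**Figure D5:**
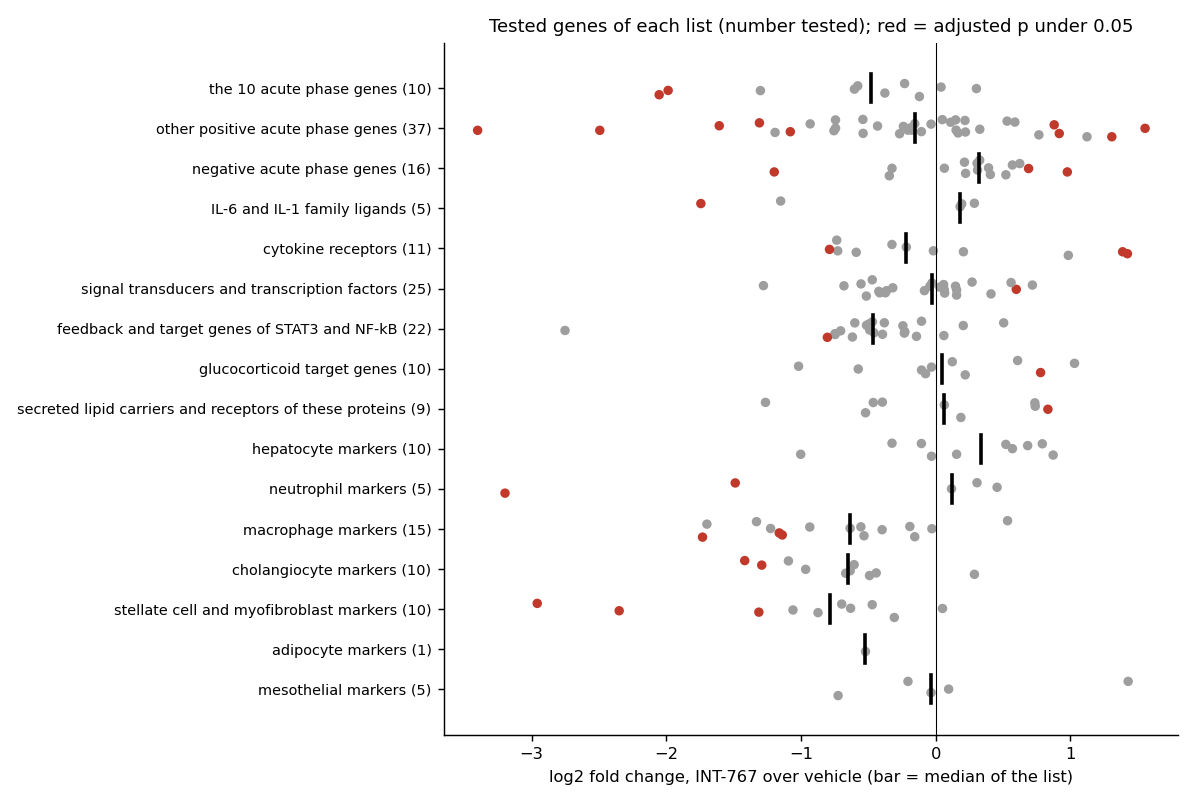
Log2 fold change of INT-767 over vehicle (horizontal axis) for each tested gene of the acute phase genes and of 15 further lists, with the number tested in parentheses. Red points were called at an adjusted *p* under 0.05 over all tested genes, gray points were not, and black bars are medians. The 10 acute phase genes have a median of -0.48 (-0.24 without vehicle mouse 3), and the negative acute phase genes one of 0.32.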

How the data were processed

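Livers of 7 vehicle and 4 INT-767-treated mice were grouped by their labels. The authors made stranded mRNA libraries from frozen left lateral lobe, sequenced them for 75 cycles on a NextSeq 500 and aligned reads with STAR to GRCm38, Ensembl release 84; the version is 2.5.2a in the supplementary methods and 2.4.0 in the submitters' processing notes. The authors deposited raw read counts per gene, 1 column per mouse, with no normalization. How reads were counted, and whether by strand, is not given in the sources used here. No exon of the 10 genes overlaps an exon of another gene.

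Counts were scaled by TMM, filtered by filterByExpr (minimum count 10, minimum total 15) and fitted with glmQLFit (robust) and glmQLFTest, treatment only, in edgeR 4.0.16 (R 4.3.3), with Benjamini-Hochberg adjustment over 13880 genes and a threshold of 0.05. Each SE was derived from the F statistic and the fold change. CPM were also compared by exact Mann-Whitney tests over 330 assignments. Lengths, coordinates and shared 75-base windows come from GENCODE M21, promoters from RefSeq GRCm38.p6. The limit for a count of 0 was 3 counts and covers counting error only, since reads carried no molecular identifiers. The members, the 15 further lists and the tests were chosen with earlier results of these data known. Named were all 10 genes, up to 5 called genes of each list by smallest *p*, up to 3 uncalled by mean level, and 2 bile acid genes. The fits were tested on simulated data. Alternatives were RLE, library size only and upper-quartile scaling, 2 other count filters, an offset for GC content and length, the mouse's number as a block, limma-voom (limma 3.58.1) without and with sample weights, DESeq2 1.42.0, paralogs summed, and leaving out each mouse. The count ratios, the lengths from joined exons and the median of the 10 genes without each mouse were added after the values were seen.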

Additional observations from a re-analysis of the deposited data

Results flagged for a closer look

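Within-group outliers were sought by Dixon's test in each group for the 10 acute phase genes and for the ratios *Saa2* to *Saa1* and *Orm2* to *Orm1* (24 sets of values), where chance flags about 1 in 20. In 4 of them a mouse lay far from the rest. *Orm1* was at 1021 CPM in vehicle mouse 3, with the next vehicle mouse at 631 CPM. *Orm3* was at 27.5 CPM in the same mouse, with the next at 14.5 CPM. Among the INT-767-treated mice, *Orm2* was at 35.6 CPM in mouse 4 and at 17.1 CPM in the next mouse, and *Orm3* at 27.9 CPM in mouse 2 and 11.7 CPM in the next. The value of *Orm2* in INT-767 mouse 4, the mouse with fat cell transcripts, was still below every vehicle mouse.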

How the results depend on the processing

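*Orm2* and *Lcn2* stayed lower under every alternative run, and both were called in each except with a replicate block, without INT-767 mouse 2 (-1.88 and -1.92) and, for *Orm2*, summed with the other orosomucoid genes. With the mouse's number as a replicate block, no gene was called (0 higher and 0 lower; 565 and 782 at an unadjusted *p* under 0.05), so that 0 acute phase genes were lower, at -2.40 for *Orm2* and -2.38 for *Lcn2* (adjusted *p* = 0.231 and 0.328 from edgeR). The numbers pair the mice by nothing in the labels, and same-numbered mice did not deviate together (correlations -0.668, 0.192, 0.124 and -0.468). The block with an offset for GC content and length also called 0 and 0 genes and 0 acute phase genes (-2.59 and -2.46), and the offset alone 1066 higher genes. Scaling by library size only moved the median of all genes to -0.22 and that of the acute phase genes to -0.69, and gave 332 higher and 1026 lower genes, 24.4% higher in place of 51.9%; upper-quartile factors gave 36.5%. By library size only, 4 acute phase genes had an exact Mann-Whitney *p* under 0.05 in place of 2, with *Orm1* at 0.0121 and *Hp* at 0.0424, beside 24.5% of all tested genes in place of 23.5%. DESeq2 called 1443 higher and 1368 lower genes, and limma-voom with sample weights 1626 and 1182, in both cases with *Orm2* and *Lcn2* among the lower.

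Leaving out 1 mouse gave 164 to 1906 higher and 110 to 1370 lower genes, the fewest without INT-767 mouse 2 and the most without vehicle mouse 1, and 0 to 2 lower acute phase genes. For *Apcs* the log2 fold change then ranged from -0.21 to 0.30, for *Orm3* from -0.25 to 0.68 and for *Saa4* from -0.34 to 0.036. *Apcs* was also negative with library size only (-0.15), upper-quartile factors (-0.048), at least 10 counts in every mouse (-0.018), the block (-0.39), the offset (-0.39), both (-0.77) and voom with sample weights (-0.12). *Orm3* was negative with the block (-0.10), the offset (-0.079), both (-0.34) and the orosomucoid genes summed (-0.70). The cause of these shifts was not tested. *Saa3* and *Orm3* had the fewest counts of the 10 genes, as few as 30 and 62 in a mouse. How far this depth limited their values was not tested.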

Other observations

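Further lists around these genes gave the following values. Of 10 glucocorticoid target genes, all tested, 1 was called by edgeR, *Tsc22d3*, which encodes the leucine zipper protein GILZ, higher with INT-767 (log2 fold change 0.78, edgeR, adjusted *p* = 0.0283). *Tat*, tyrosine aminotransferase (1.03, edgeR, adjusted *p* = 0.0599), *Pck1* (-0.03) and *Errfi1* (0.12) did not pass, and the median was 0.05. Of 11 lipid carriers and receptors of the acute phase proteins, 9 were tested and 1 was called, *Scarb1*, a receptor for high density lipoprotein that also binds serum amyloid A, higher at 0.83 (edgeR, adjusted *p* = 0.0115). *Apoe* (0.06), *Apoa4* (0.74) and *Lrp1* (-1.26, edgeR, adjusted *p* = 0.0984) did not pass.

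Markers of 4 other cell types were listed. Of 10 cholangiocyte markers 2 were lower, *Muc1* (-1.42) and *Cldn4* (-1.29), while *Spp1*, the most abundant, *Sox9* and *Epcam* were not called (-0.44, -0.61 and -0.67). The median was -0.65, with a negative sign in 9 of 10 genes. The summed level, most of it from *Spp1*, was 749 to 1951 CPM with vehicle (median 864) and 367, 594, 822 and 1367 CPM with INT-767. Of 10 stellate cell and myofibroblast markers 3 were lower, *Col1a2* (-2.35), the most abundant, *Col1a1* (-2.96) and *Pdgfrb* (-1.31), while *Reln*, *Lrat* and *Tagln* were not called (-0.70, 0.05 and -0.31). Their median was -0.79, with a negative sign in 9 of 10 genes, and their sum was 228 to 966 CPM with vehicle (median 541) and 235, 112, 224 and 192 CPM with INT-767. Of 6 mesothelial markers 5 were tested and 0 called, with a median of -0.03. They were *Krt18*, the most abundant (-0.72, edgeR, adjusted *p* = 0.0762), *Gpm6a* (-0.03) and *Wt1* (-0.21), and, named after their values were seen, *Upk3b* (1.43, edgeR, adjusted *p* = 0.0800) and *Msln* (0.10). The sum of all 6 was 264 to 544 CPM with vehicle (median 306) and 262, 159, 258 and 152 CPM with INT-767, nearly all of it from *Krt18*, a keratin that hepatocytes also express. Of 5 fat cell markers 1 was tested, *Cfd* (-0.53, edgeR, adjusted *p* = 0.638), *Retn* had 0 counts in all mice, and the sum was 0.291 to 2.49 CPM with vehicle and 0.254, 0.552, 0 and 11.7 CPM with INT-767. The part of these cells in the levels of the acute phase genes was not tested.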
